A study of Mus musculus with 4 samples.

Results

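The genes described here encode the lysosomal proton pump, lysosomal membrane proteins, hydrolases and their precursor proteins, and the transcription factors that control lysosomal genes. The 38 members were taken by gene symbol from a table of 34745 mouse Ensembl gene IDs, and all 38 were found and passed the filter on low counts. They comprise 16 genes of the vacuolar ATPase (V-ATPase), 5 membrane proteins, 12 hydrolases, 2 precursor proteins and 3 factors of the MiT/TFE family. RNA was sequenced from macrophages grown out of the bone marrow of C57BL/6 mice, primary cells rather than a line. All 4 libraries came from cells that had been transfected with a small interfering RNA (siRNA) and then given lipopolysaccharide (LPS), the cell wall component of Gram-negative bacteria. In 2 libraries the siRNA was Acly-E14, aimed at Acly, which encodes ATP citrate lyase, a source of acetyl-CoA outside mitochondria, and in the other 2 it was a control siRNA. There was no group without LPS, so nothing here bears on the LPS response itself. The labels used here state neither the sex and age of the mice nor the LPS dose and time nor the siRNA sequences.

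The V-ATPase is a rotary pump that hydrolyses ATP in its cytosolic V1 sector and moves protons through its membrane-embedded V0 sector, which acidifies endosomes, phagosomes and lysosomes. Acid hydrolases reach these compartments mostly through mannose 6-phosphate receptors and degrade glycans, lipids and proteins, a main task of macrophages. TFEB, TFE3 and MITF are basic helix-loop-helix factors that bind E-box sequences near many lysosomal genes, and nutrient signalling through mTORC1 at the lysosomal surface keeps them in the cytosol.

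Because these factors recognise E-boxes, the promoters of the members were searched for them. Promoter windows of 300 bases (250 before and 50 after a RefSeq start site, GRCm38.p6) were matched to 33 of the 38 members. The E-box CACGTG, searched on both strands, lay in a window of 11 members (33.3%), against 11.8% of the 9958 tested genes with a window and 7.15% of all 32851 windows. The longer form TCACGTG, which contains it, was found in the same 11 members and in 7.02% of the tested genes with a window. The 10-base palindrome that extends CACGTG by GT before and AC after was in 0 of 33 members and 0.813% of those tested genes, and TCATGTG, the core of the M-box bound by MITF, was in 4 members and 2.63%. The stretches below, on the strand of the gene, have CACGTG in capitals. They are those of members that differed between the groups and carried the E-box only before the RefSeq start site used. The first 4 belong to genes that were lower with Acly-E14 siRNA, and the last, with 4 copies, to one that was higher. They lie at chr16:44139375-44139400 (minus strand), chr4:117887332-117887375 (minus), chr8:3500438-3500489 (plus), chrX:134601184-134601242 (minus) and chr8:13159090-13159160 (plus). By the GENCODE M21 gene bounds, however, the Atp6v1a stretch lies inside the gene, which ends at 44139705. The Mcoln1 stretch lies partly inside its gene, which starts at 3500457, and that part holds the later of its E-boxes. That of Atp6v0b overlaps its gene only at the edge.
Atp6v1a: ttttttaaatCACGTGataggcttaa
Atp6v0b: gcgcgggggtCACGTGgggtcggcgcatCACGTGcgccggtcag
Mcoln1: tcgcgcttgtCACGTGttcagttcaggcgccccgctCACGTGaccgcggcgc
Gla: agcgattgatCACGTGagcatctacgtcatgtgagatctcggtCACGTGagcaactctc
Lamp1: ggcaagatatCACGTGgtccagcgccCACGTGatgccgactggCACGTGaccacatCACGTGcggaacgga
These are matches of letters in a window, and no binding was measured.

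The libraries held between 21023197 and 21837806 counts. Levels are given as CPM (counts relative to the TMM-scaled library total), and changes as log2 differences of Acly-E14 siRNA minus control with their standard error (SE). Genes were called at an adjusted p under 0.05 in edgeR's quasi-likelihood test, over 13108 genes. Acly was at 158 and 154 CPM in controls and at 118 and 127 CPM in Acly-E14 siRNA libraries (log2 -0.35, edgeR adjusted p = 0.0086). That call was lost without control library 1 (0.058). Macrophage markers were present in every library, and all 20 listed genes were tested. They summed to 11869 and 11099 CPM in controls and to 10871 and 11439.5 CPM in Acly-E14 siRNA libraries, so the groups overlapped. In contrast, 6 lymphocyte markers summed to at most 0.183 CPM, with Cd3e and Ncr1 at 0 counts throughout. Dendritic cell markers summed to 3.87 to 6.36 CPM. Neutrophil markers summed to 92.6 and 101 CPM in controls and to 140 and 139 CPM in Acly-E14 siRNA libraries. Of the 8 neutrophil markers only 3 were tested, of which 2 were higher and 1 lower, with log2 differences from -3.67 to 0.70. Fibroblast and stroma markers summed to 1108 and 1686 CPM in controls and to 3579 and 4451 CPM in Acly-E14 siRNA libraries, and 13 of 15 were higher. Across all tested genes 17.3% were called higher and 15.9% lower. Whether replicate libraries stem from different cultures or mice is not stated, so the p-values reflect only the scatter of these samples, which may be technical.

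Of the 38 members, 21 were lower with Acly-E14 siRNA, 7 were higher and 10 were not called. Across all tested genes 15.9% were called lower and 17.3% higher, 33.2% in all. The groups did not overlap in 24 members with lower and 12 with higher Acly-E14 siRNA levels, a separation seen in 70.6% of all tested genes, and overlapped in Gpnmb and Sgsh. In the V-ATPase 15 of 16 genes were lower, while among the 12 hydrolases 5 were higher and 2 lower, and of the 3 MiT/TFE factors 2 were lower and 0 higher. Fewer V-ATPase genes were called lower when any 1 library was left out, and fewer hydrolases higher when control library 2 or either Acly-E14 siRNA library was. Such a fit leaves 1 library in a group, and calls across all tested genes fell as well. These losses therefore cannot show whether a call rests on a single library. Of all members, 4 were higher when control library 2 or Acly-E14 siRNA library 2 was left out and 3 when Acly-E14 siRNA library 1 was. The median log2 difference was -0.45 for the V-ATPase, -0.40 for the MiT/TFE factors, 0.15 for the membrane proteins and 0.20 for the hydrolases, beside 0.00 for all tested genes. All the changes were moderate: no member passed 1 on the log2 scale. Of the macrophage markers 10 of 20 were lower and 5 higher (median -0.25), although their sums overlapped between the groups. The median of the fibroblast and stroma list was 1.43. Osteoclast markers, 6 of 9 of which were tested, summed to 1179 and 1138 CPM in controls and to 967 and 932 CPM with Acly-E14 siRNA, with 3 lower and 2 higher. Their part in the falls and rises of lysosomal genes was not tested, and in bulk RNA fewer macrophages and less RNA per macrophage cannot be told apart.

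**Figure D1:**
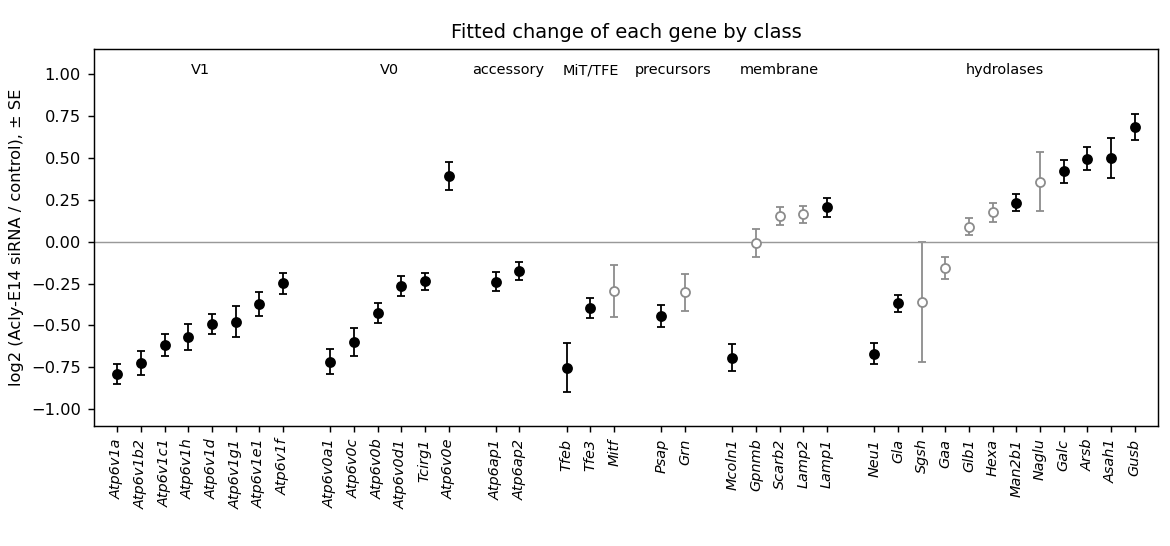
Log2 difference of Acly-E14 siRNA minus control for each of the 38 genes, grouped by class, with bars of 1 SE from the edgeR fit on 2 libraries per group; filled points were called and open points were not. The V-ATPase genes lie below 0 except Atp6v0e at 0.39, and the hydrolases run from -0.67 (Neu1) to 0.69 (Gusb).

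The V1 sector fell as a whole. All 8 of its genes were lower with Acly-E14 siRNA, with log2 differences from -0.79 to -0.25, and in each of them both Acly-E14 siRNA libraries lay below both controls. Such separation downward was seen in 35.3% of all tested genes, and 15.9% were called lower. Atp6v1a (mm10 chr16:44085402-44139705, minus strand), which encodes the catalytic A subunit that binds and hydrolyses ATP, was at 1405 and 1370 CPM in controls and at 828 and 773 CPM in Acly-E14 siRNA libraries. It had the lowest log2 difference of the 38 members (-0.79, SE 0.060, edgeR adjusted p = 0.0011) and stood at 57.7% of the control level. Its partner in the catalytic hexamer, the B subunit gene Atp6v1b2, went from 1123 and 1070 to 698 and 630 CPM (log2 -0.72, SE 0.070, edgeR adjusted p = 0.0019). For both, the gap between the groups was several times the gap between the libraries within either.

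The other 6 genes of V1 had log2 differences from -0.62 to -0.25. Atp6v1c1, whose C subunit links V1 to the stator and is released when the sectors come apart, went from 312 and 296 to 206 and 190 CPM (log2 -0.62). The regulatory H subunit gene Atp6v1h went from 231 and 215 to 160 and 142 CPM (log2 -0.57). Atp6v1d, which encodes the central rotor shaft, went from 218 and 206 to 155 and 147 CPM (log2 -0.49). These 3 genes kept their call under every refit tried, as did Atp6v1a and Atp6v1b2. Of the remaining stalk genes, Atp6v1g1 was at 224 and 186 CPM in controls and 150 and 145 CPM in Acly-E14 siRNA libraries (log2 -0.48). Control library 1 stood above control library 2, but the groups did not overlap, and the call was lost only without Acly-E14 siRNA library 2 (edgeR adjusted p = 0.064). Atp6v1e1 (log2 -0.37) lost its call without control library 1 (0.077) or 2 (0.056). Atp6v1f, a rotor subunit gene, had the smallest difference of the sector, from 145 and 135 to 121 and 115 CPM (log2 -0.25, edgeR adjusted p = 0.031). It fell out of the calls when any 1 library was left out (0.052 to 0.15), with library totals in place of TMM (0.082), with limma on the log2(FPKM + 1) scale (0.064) and without a filter on low counts (0.059). Atp6v1e1 and Atp6v1h share 32 and 127 exon bases with Slc25a18 and Rgs20 on the other strand.

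**Figure D2:**
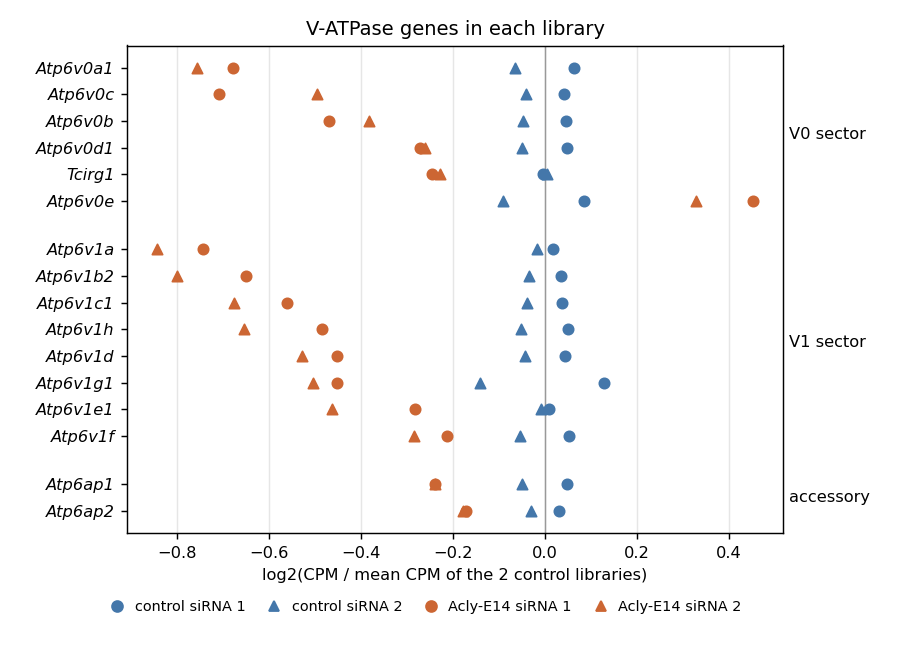
Level of the 16 V-ATPase genes in each of the 4 libraries, as log2 of CPM over the mean of the 2 control libraries (circles, library 1; triangles, library 2). In 15 genes both Acly-E14 siRNA libraries lie left of both controls, and in Atp6v0e they lie right of them.

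In the V0 sector 5 of 6 genes were lower and 1 was higher, beside 15.9% and 17.3% of all tested genes. Atp6v0c encodes the c subunit, the most numerous member of the proton-carrying ring. It was at 524 and 495 CPM in controls and at 312 and 361 CPM in Acly-E14 siRNA libraries (log2 -0.60, SE 0.083, edgeR adjusted p = 0.0047). Atp6v0b, for the related ring subunit of a single copy per pump, went from 392 and 367 to 274 and 291 CPM (log2 -0.43). It shares 243 exon bases with the antisense gene Gm12841, and its promoter stretch above carries the E-box at 2 places. Atp6v0d1, whose d subunit joins the ring to the rotor, went from 117 and 110 to 94.1 and 94.9 CPM (log2 -0.27, edgeR adjusted p = 0.021). That call was lost without control library 1 (0.11), Acly-E14 siRNA library 1 (0.089) or 2 (0.093), or with library totals (0.059).

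The exception was Atp6v0e (mm10 chr17:26663231-26699647, plus strand), which encodes the small e subunit of V0. It was at 118 and 105 CPM in controls and at 153 and 140 CPM in Acly-E14 siRNA libraries (log2 0.39, SE 0.081, edgeR adjusted p = 0.016), so both treated libraries lay above both controls. The call was lost without control library 2 (0.071) or Acly-E14 siRNA library 1 (0.067), and the log2 difference was above 0 in all refits. An E-box also lay in its promoter window, beginning at base 4 of the transcript.

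The a subunit forms the proton half-channels of V0 and exists in several versions that direct the pump to different membranes. Atp6v0a1 (a1) fell from 74.0 and 67.8 to 44.3 and 41.9 CPM (log2 -0.72, SE 0.075, edgeR adjusted p = 0.0023). Tcirg1 (a3), the version of lysosomes and of the osteoclast border, went from 1349 and 1359 to 1142 and 1156 CPM (log2 -0.24, edgeR adjusted p = 0.019). Tcirg1 was no longer called when any 1 library was left out (0.077 to 0.086), nor with library totals (0.058) or limma (0.055). Per unit of gene length, Tcirg1 was the most abundant a gene in these cells, at 180 ± 3.74 FPKM (SD, n = 2) in controls against 7.09 ± 0.330 FPKM for Atp6v0a1 and 6.14 ± 0.225 FPKM for Atp6v0a2. Its Acly-E14 siRNA level was 162 ± 2.86 FPKM. Of the d subunit genes, Atp6v0d2, the version typical of osteoclasts and macrophages, was at 241 ± 4.39 FPKM in controls and 234 ± 10.4 FPKM with Acly-E14 siRNA. On the CPM scale its log2 difference was -0.13 (edgeR adjusted p = 0.15, but 0.039 with a replicate block), and Atp6v0d1 was at 51.7 ± 1.65 FPKM in controls. The gene length behind the deposited FPKM equalled the merged exons of the GENCODE M21 annotation for 2 of the 38 members, so levels set between genes are approximate.

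**Figure D3:**
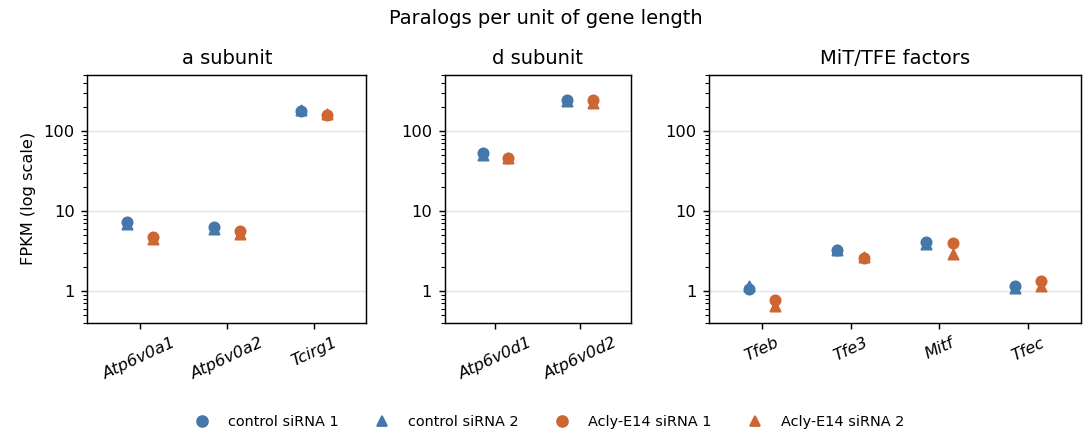
FPKM (log axis) of the a subunit genes, the d subunit genes and the MiT/TFE factors in each library (circles, library 1; triangles, library 2; blue, control; orange, Acly-E14 siRNA). Tcirg1 and Atp6v0d2 lie above their paralogs in all 4 libraries, and Tfeb lies below Tfe3 and Mitf.

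Both accessory genes were lower, as were 15.9% of all tested genes. Atp6ap1, needed for assembly of V0, went from 257 and 240 CPM to 210 CPM in both Acly-E14 siRNA libraries (log2 -0.24, edgeR adjusted p = 0.025). Atp6ap2, the (pro)renin receptor, went from 308 and 296 to 268 and 267 CPM (log2 -0.17, edgeR adjusted p = 0.049). Neither call held in every refit. That of Atp6ap2 was lost without any 1 library, with library totals (0.21), with limma (0.17) and without a filter (0.069). That of Atp6ap1 was lost without control library 1 (0.13), Acly-E14 siRNA library 1 (0.089) or 2 (0.0999), with library totals (0.070) and with limma (0.073). Summed over the 16 V-ATPase genes, the level was 7299 and 7012 CPM in controls and 5224 and 5064 CPM in Acly-E14 siRNA libraries. Of the 15 lower calls, 8 were kept in all 10 refits, and all 15 differences stayed below 0 in them.

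Other V-ATPase genes were few in these cells. Of 10 further subunit genes, most of them versions of other tissues, 4 passed the filter and 4 were at 0 counts in every library. Across all tested genes 15.9% were called lower, and of these 4 only Atp6v0a2 was (log2 -0.29, edgeR adjusted p = 0.040). It shares 663 exon bases with an antisense gene, and its call did not hold without control library 1 (0.16) or 2 (0.069) or Acly-E14 siRNA library 2 (0.20), with library totals (0.093), with limma (0.15) and without a filter (0.077). Among 10 tested genes that assemble or regulate the pump 4 were lower and 0 higher, beside 15.9% and 17.3% of all tested genes. The median was -0.09, or 0.0066 with library totals and 0.0026 with limma. Leaving out control library 1 or Acly-E14 siRNA library 2 left 1 of the 4 calls in number, and leaving out either of the others left 2. Ncoa7, whose interferon-inducible short form binds the V-ATPase, went from 173 and 166 to 110 and 109 CPM (log2 -0.63, SE 0.054, edgeR adjusted p = 0.0015). Dmxl1, a part of the complex that reassembles V1 with V0, had a log2 difference of -0.35, and Tmem199, an assembly factor of the endoplasmic reticulum, of -0.36. The Tmem199 call was lost without any 1 library (0.090 to 0.12), with library totals (0.084) and with limma (0.066). That of Dmxl1 was lost without control library 1 (0.084) or Acly-E14 siRNA library 2 (0.11) and with limma (0.15).

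Of the 5 membrane proteins 1 was higher, 1 lower and 3 not called. Across all tested genes 17.3% were called higher and 15.9% lower, so these counts are near the background. Mcoln1 encodes TRPML1, the lysosomal calcium channel whose opening activates the phosphatase calcineurin and through it TFEB. It was at 59.0 and 53.8 CPM in controls and at 35.8 and 34.0 CPM in Acly-E14 siRNA libraries (log2 -0.69, SE 0.080, edgeR adjusted p = 0.0028), a call kept in every refit. Lamp1, a heavily glycosylated protein of the limiting membrane, was instead higher, from 2367 and 2291 to 2671 and 2700 CPM (log2 0.21, edgeR adjusted p = 0.037), although the call was lost without any 1 library (0.11 to 0.15). The E-box was present in both promoter windows, at 2 places for Mcoln1 and at 4 for Lamp1.

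Lamp2, which also serves chaperone-mediated autophagy, was at 767 and 784 CPM in controls and 855 and 882 CPM with Acly-E14 siRNA (log2 0.16, edgeR adjusted p = 0.060). Scarb2, the receptor that carries beta-glucocerebrosidase to lysosomes, was at 267 and 270 against 290 and 306 CPM (log2 0.15, edgeR adjusted p = 0.080). Neither was called, although the groups did not overlap. Both were called with a replicate block (adjusted p = 0.018 and 0.044), with library totals (0.014 and 0.022), with DESeq2 (0.0016 and 0.022) and with limma (0.018 and 0.027). Gpnmb, a glycoprotein that macrophages make in large amounts under lysosomal stress, was at 19633 and 17565 CPM in controls and at 18234 and 18769 CPM with Acly-E14 siRNA, so the groups overlapped (log2 -0.01, edgeR adjusted p = 0.95).

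The hydrolases differed among themselves. Gusb (mm10 chr5:129989011-130003049, minus strand), the beta-glucuronidase of glycosaminoglycan breakdown, had the highest log2 difference of the members and rose from 349 and 321 to 568 and 510 CPM (1.61-fold, log2 0.69, SE 0.076, edgeR adjusted p = 0.0026). Arsb, which removes sulfate from dermatan and chondroitin sulfate, rose from 36.6 and 37.2 to 51.0 and 52.9 CPM (1.41-fold, edgeR adjusted p = 0.0047). It shares 1948 exon bases with the lincRNA gene Gm26527 on the other strand, so its counts are less certain. Galc, the galactosylceramidase whose loss causes Krabbe disease, rose from 50.3 and 46.2 to 64.9 and 64.2 CPM (1.34-fold, edgeR adjusted p = 0.0085). It shares 400 exon bases with the antisense gene Gm47439. These 3 rises were called in every refit.

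Of the other rises, Asah1 encodes acid ceramidase and went from 214 and 165 to 274 and 263 CPM (log2 0.50, SE 0.12, edgeR adjusted p = 0.026). Its controls stood far apart, and the call was lost without Acly-E14 siRNA library 1 (0.083) or 2 (0.071) and without a filter on low counts (0.067). Man2b1, lysosomal alpha-mannosidase, rose from 556 and 551 to 656 and 646 CPM (1.18-fold, edgeR adjusted p = 0.018), not called when any 1 library was left out (0.066 to 0.095).

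The 2 hydrolase genes that fell were Neu1 and Gla, and both calls were kept in every refit. Neu1, the sialidase that starts the breakdown of sialylated glycans, went from 84.5 and 85.0 to 54.7 and 51.8 CPM (log2 -0.67, SE 0.062, edgeR adjusted p = 0.0018). Gla, the alpha-galactosidase that is deficient in Fabry disease, went from 376 and 366 to 288 and 287 CPM (log2 -0.37, SE 0.050, edgeR adjusted p = 0.0044). Glb1, for beta-galactosidase, carried the E-box as Gla did but was not called. It was at 117 and 119 CPM in controls against 126 and 125 CPM (log2 0.09, edgeR adjusted p = 0.24, and 0.044 and 0.034 with library totals and limma). Glb1 shares 165 exon bases with Tmppe on the same strand.

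The other 4 hydrolase genes were not called either. Hexa, the alpha subunit of hexosaminidase, was at 940 and 892 CPM in controls and at 1046 and 1024 CPM with Acly-E14 siRNA (log2 0.18, edgeR adjusted p = 0.058). It was called with a replicate block (0.015), library totals (0.0088), DESeq2 (0.0022) and limma (0.012). Gaa, the glycogen-degrading alpha-glucosidase, had a log2 difference of -0.16 (edgeR adjusted p = 0.13). For Naglu, an enzyme of heparan sulfate breakdown, the controls were at 126 and 84.0 CPM and the Acly-E14 siRNA libraries at 133 and 136 CPM (log2 0.36, edgeR adjusted p = 0.17, but 0.017 without control library 1). Sgsh, another enzyme of that pathway, was low, at 1.64 to 3.04 CPM (edgeR adjusted p = 0.48), and shares 955 exon bases with Card14 on the other strand. Summed over the 12 genes, hydrolases were at 3025 and 2826 CPM in controls and 3412 and 3308 CPM in Acly-E14 siRNA libraries. This sum was higher where that of the V-ATPase was lower. A wider list of 32 hydrolases and activators, treated below, showed no such rise. It summed to 9543 and 9336 CPM in controls and to 9540 and 9148 CPM with Acly-E14 siRNA.

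**Figure D4:**
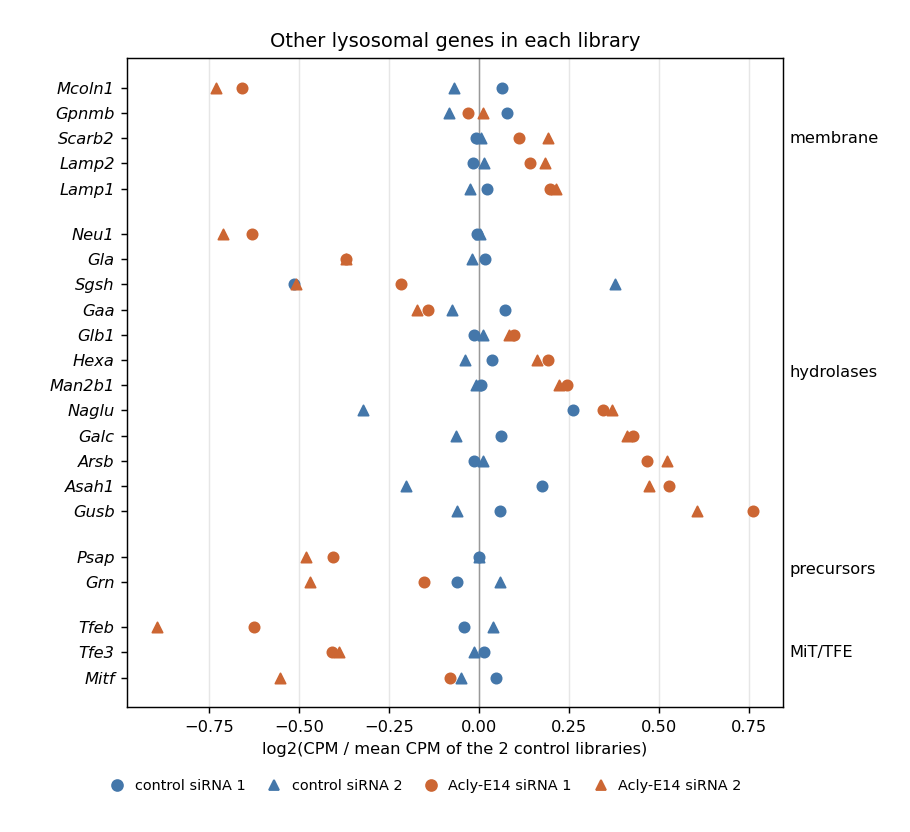
Level of the membrane protein, hydrolase, precursor and MiT/TFE genes in each library, as log2 of CPM over the control mean (circles, library 1; triangles, library 2). Gusb, Asah1, Arsb and Galc lie right of the controls, Neu1, Gla, Mcoln1, Psap, Tfeb and Tfe3 left of them, and Gpnmb and Sgsh overlap.

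The precursor proteins were lower or not called. Psap encodes prosaposin, which is cut into the saposins that present sphingolipids to hydrolases. Per unit of length it was the most abundant member in both controls, at 3275 and 3350 FPKM, but in Acly-E14 siRNA library 2 it was at 2545 FPKM and Gpnmb at 2608 FPKM. The lengths used were 3989 bases for Psap and 7472 for Gpnmb, against 2744 and 6514 of merged exons, so that last order is uncertain. On the CPM scale Psap went from 13642 and 13650 to 10302 and 9776 CPM (log2 -0.44, SE 0.068, edgeR adjusted p = 0.0064), a call kept in every refit. Grn, for progranulin, was at 1382 and 1500 CPM in controls and at 1297 and 1041 CPM with Acly-E14 siRNA (log2 -0.30, edgeR adjusted p = 0.087, and 0.020 without Acly-E14 siRNA library 1). Prosaposin escorts progranulin to lysosomes.

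Of the MiT/TFE factors, Tfe3 fell from 69.2 and 67.8 to 51.7 and 52.3 CPM (log2 -0.40, SE 0.060, edgeR adjusted p = 0.0062). Only limma did not call it (adjusted p = 0.074). Tfeb (mm10 chr17:47737030-47792419, plus strand) was expressed at a low level and went from 10.2 and 10.8 to 6.82 and 5.66 CPM (log2 -0.75, SE 0.15, edgeR adjusted p = 0.013), a call lost without Acly-E14 siRNA library 2 (0.072). Mitf was at 43.1 and 40.3 CPM in controls and at 39.5 and 28.5 CPM in Acly-E14 siRNA libraries (log2 -0.30, edgeR adjusted p = 0.20, and 0.026 without Acly-E14 siRNA library 1). The 2 Acly-E14 siRNA libraries thus differed more for Mitf than library 1 differed from the controls, and gene counts cannot separate its several promoters. Per unit of length, control levels were 3.98 ± 0.127 FPKM for Mitf, 3.21 ± 0.00474 for Tfe3 and 1.11 ± 0.0598 for Tfeb. Tfec, the macrophage-restricted relative, was at 1.12 ± 0.0444 FPKM, with a log2 difference of 0.05 (edgeR adjusted p = 0.83). The lengths used were 10143 bases for Mitf, 20656 for Tfe3, 9219 for Tfeb and 6965 for Tfec. Merged exons are 6196, 9261, 5669 and 5594 bases, so the order of Mitf and Tfe3, and of Tfeb and Tfec, is uncertain. The activity of these factors is set mainly by where in the cell they are, which RNA levels do not show.

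The calls were also counted by the E-box, and the difference between members with and without it was not tested. Of the 11 members with CACGTG in a window, 5 were lower, 2 higher and 4 not called (median log2 -0.27). Of the 22 with a window and no E-box, 12 were lower, 4 higher and 6 not called (median log2 -0.24). Over all tested genes with a window, 17.0% of those with the E-box and 16.0% of those without it were lower, and 17.3% of each were higher.

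Genes around TFEB were also measured. Of 21 tested genes of the nutrient signalling that controls TFEB, 7 were lower and 0 higher (median log2 -0.23), beside 15.9% and 17.3% of all tested genes. Library totals called 6 lower and 3 higher and limma 5 lower and 3 higher, and the lower genes numbered 3 when control library 1 was left out and 4 when Acly-E14 siRNA library 2 was. Fnip1 and Fnip2, partners of folliculin in the complex that activates RagC and RagD at the lysosome, fell from 213 ± 7.88 to 142 ± 7.78 CPM (log2 -0.58) and from 459 ± 15.5 to 321 ± 8.43 CPM (log2 -0.52). Ppp3ca, the catalytic calcineurin subunit that dephosphorylates TFEB, fell from 85.2 ± 4.45 to 60.8 ± 0.181 CPM (log2 -0.49). These 3 calls were kept in every refit.

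Of 14 autophagy genes linked to TFEB 7 were lower and 0 higher (median log2 -0.17), beside 3 lower when any 1 library was left out, with library totals or with limma, and 4 without a filter. Across all tested genes 15.9% were called lower and 17.3% higher. The replicate block called 2 of the 14 autophagy genes higher. Sqstm1, for the autophagy receptor p62, went from 1611 ± 83.5 to 1187 ± 22.8 CPM (log2 -0.44) and shares 580 exon bases with Mrnip on the other strand. Vps18, a subunit of the HOPS tether that brings vesicles to lysosomes, had a log2 difference of -0.56, and Bnip3l, a mitophagy receptor, of -0.56. The Bnip3l call was lost without control library 1 or 2 (0.076 for each).

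In the sorting pathway for hydrolases 2 of 9 genes were lower and 2 higher, and 1 in each direction when control library 1 or Acly-E14 siRNA library 2 was left out. Without Acly-E14 siRNA library 1, 1 was higher. The all-gene shares are 15.9% lower and 17.3% higher, so these counts are near the background. M6pr, the cation-dependent mannose 6-phosphate receptor, went from 563 and 591 to 394 and 393 CPM (log2 -0.55, SE 0.053, edgeR adjusted p = 0.0020). The adaptor genes Gga2 (log2 -0.41) and Gga3 (1.43-fold higher) moved in opposite directions; they share 720 and 127 exon bases with Gm44987 and Mrps7. Gga2 lost its call without control library 1 (0.073) or Acly-E14 siRNA library 2 (0.080) and with limma (0.097).

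Larger changes than in any of the 38 members were found in a wider list of hydrolases and their activators, of which 6 of 32 were higher and 7 lower (median log2 -0.01, and 0.086 and 0.082 with library totals and limma). These counts stand beside 17.3% higher and 15.9% lower of all tested genes and are close to that background. Only 4 were lower when control library 1 or Acly-E14 siRNA library 2 was left out. Lipa, the acid lipase that frees cholesterol and fatty acids from lipoprotein esters, rose from 180 and 160 to 482 and 448 CPM (2.73-fold, log2 1.45, SE 0.077, edgeR adjusted p = 0.000665). Hgsnat, the acetyltransferase that uses acetyl-CoA to modify heparan sulfate in lysosomes, fell from 80.1 and 84.0 to 30.5 and 30.1 CPM (log2 -1.44, SE 0.066, edgeR adjusted p = 0.00058). Ppt2, a lysosomal thioesterase gene, had a log2 difference of -1.43, but shares 957 exon bases with the overlapping Gm20460, so its counts are less certain. All 3 calls held in every refit.

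Of 25 further lysosomal membrane genes 3 were higher and 6 lower (median log2 -0.06, and 0.028 and 0.014 with library totals and limma). When any 1 library was left out 1 was higher, without control library 1 just 2 were lower, and library totals and limma each called 5 higher. Of all tested genes 17.3% were higher and 15.9% lower, which is near these counts. Ctns, the cystine exporter, went from 24.9 ± 0.338 to 14.5 ± 0.212 CPM (log2 -0.77) and Tmem192 from 97.0 ± 3.79 to 68.8 ± 1.67 CPM (log2 -0.50). Abca2, a lipid transporter gene, rose 1.59-fold, a call lost without control library 1 (0.055) or Acly-E14 siRNA library 2 (0.056). Clcn7, the chloride-proton exchanger that works beside the V-ATPase, was named after its values were seen. It went from 1087 and 990 to 793 and 682 CPM (log2 -0.49, edgeR adjusted p = 0.011, and 0.069 without control library 1).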

How the data were processed

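RNA sequencing of 4 libraries was analysed, 2 per siRNA group. In the deposited table each Ensembl gene has whole-number counts for the 4 libraries, not normalized according to the column names per the file headers, and FPKM computed by the authors. HISAT2, StringTie 1.3.0, edgeR and mm10 are named in the submitters' processing notes. The role of each tool, how strand was handled and which annotation served are not stated in those notes, and the labels' protocols name both a stranded total RNA kit and mRNA capture beads. Of 49103 deposited FPKM values above 0, 49103 equalled, within a relative 0.001, the value from the count, the library total and a single length per gene derived from the FPKM. FPKM of all libraries were recomputed with that length, since 1 value column, whose name has no replicate number, was not used.

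Symbols matched 34267 of 34745 IDs, and 1 list symbol was replaced through RefSeq synonyms. Counts were tested with edgeR 4.0.16 (R 4.3.3; filterByExpr, minimum count 10; TMM; quasi-likelihood F test; Benjamini-Hochberg over 13108 genes). SE values are those implied by the F statistic. The 10 refits were a replicate block, each library left out, RLE size factors, library totals, DESeq2 1.42.0, limma 3.58.1 on log2(FPKM + 1) and no filter. The FPKM given to limma were scaled by library totals without TMM factors, so limma and library totals are not independent checks. Thresholds of 0.1 and of a log2 difference over 1 were also tried. The smallest two-sided p of an exact permutation test of 2 against 2 libraries is 0.333, so each call leans on the variance that edgeR pools over genes. Libraries held at least 21023197 counts, and counting error is relatively largest in low genes such as Sgsh.

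Members and lists were chosen with earlier results of these data known. Named genes were all members, Acly, and in each pathway list the 3 called genes of smallest p whose groups did not overlap. Coordinates of promoters are RefSeq GRCm38.p6. Exon overlaps are from GENCODE M21 on mm10, and 10 of 38 members share exon bases with another gene. Those not given above are Lamp1 (249 bases, Grtp1), Hexa (255, Tmem202) and Grn (68, Fam171a2), each with a gene on the other strand.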

Additional observations from a re-analysis of the deposited data

How the results depend on the processing

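Of the 28 called members, 15 kept their call in all 10 refits and 0 changed direction. Leaving out 1 library at a time gave 3 to 6 higher and 14 to 18 lower members, and 1045 to 1815 higher and 982 to 1400 lower genes over the whole table. Members higher numbered 11 with library totals and with limma on log2(FPKM + 1), and 0 higher and 0 lower passed a log2 difference over 1, as against 982 and 219 of all genes. With limma on log2(FPKM + 1) 1389 genes were lower in all. Higher genes were 52.0% of calls with TMM and 65.8% with library totals (2776 higher, 1446 lower), whose median over all genes was 0.09. Among the members, values that changed sign were Gpnmb (-0.087 to 0.070 with 1 library left out, 0.085 with library totals, 0.086 with limma) and Sgsh (-0.74 to 0.16 with 1 library left out). With library totals and limma, the medians of the V-ATPase assembly list (0.0066 and 0.0026), of the further membrane genes (0.028 and 0.014) and of the wider hydrolase list (0.086 and 0.082) turned positive. The median of all genes was -0.0021 without Acly-E14 siRNA library 1. The cause was not tested. The replicate block gave 2514 higher and 2382 lower genes, and 10 higher and 21 lower members. The labels do not say that a replicate number marks a shared animal or batch, and deviations of same-numbered libraries correlated at 0.13 across 13108 genes and at 0.25 across the 7734 above 10 CPM. The block added calls of Lamp2, Scarb2 and Hexa among the members. The smallest called difference among the members was -0.17 (Atp6ap2), while -0.36 in Sgsh, with an SE of 0.36 at its low depth, was not distinguishable from 0.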
